A study of Rattus norvegicus with 12 samples.

Results

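The genes described here are 10 components of the Notch pathway: the receptors Notch1, Notch2, Notch3 and Notch4, the ligands Jag1, Jag2 and Dll4, and the targets Hes1, Hey1 and Heyl. They were taken by symbol from a read-count table of 30045 gene rows. Notch is a contact signal: a ligand on one cell binds a receptor on its neighbour, the receptor is cut by an ADAM protease and then by gamma-secretase, and the freed intracellular piece joins the DNA-binding protein Rbpj to switch on Hes and Hey genes. Those targets encode transcriptional repressors. In the ovary the pathway is known from granulosa cells of the growing follicle and from the vessels of the theca layer, where Dll4, Notch1 and Notch4 mark endothelium and Notch3 and Heyl mark the mural cells around it.

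The libraries came from theca-interstitial cells, the androgen-producing layer around the follicle, isolated from wild-type female Sprague Dawley rats at postnatal day 30 and cultured on human fibronectin in McCoy's 5A medium. Of the 12 libraries, 4 were from cells given LPS, the bacterial lipopolysaccharide, at 1 µg/ml, 4 from cells given rat IL-1b, an inflammatory cytokine, at a dose that the labels do not state separately, and 4 from cells given vehicle (Control), all for 48 h. The labels do not say whether the replicates came from separate animals, pools or wells, so the p-values measure the spread between these libraries, which may be technical. The LPS libraries held 25643226 to 28698783 counts, the IL-1b libraries 23193408 to 26836323 and the Control libraries 20873934 to 32090924. Levels are CPM, the usual per-library count scale, here with library sizes adjusted by TMM (trimmed mean of M-values), and fold changes and adjusted p-values are from edgeR's quasi-likelihood test over 17330 genes, with calls at an adjusted p under 0.05. Since CPM does not correct for transcript length, levels were compared between groups for one gene and not between genes.

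The cultures were mixed by their marker genes. Defining endothelial markers were present in all 12 libraries, with Cdh5 averaging 108 CPM in LPS, 135 in IL-1b and 64.6 in Control cultures. Of the theca markers, Cyp17a1 averaged 3.39 CPM in LPS, 15.5 in IL-1b and 0.537 in Control cultures, and Lhcgr 2.61, 5.52 and 2.02 CPM in the same order. The mural marker Myh11 averaged 56.5 CPM in LPS, 52 in IL-1b and 208 in Control cultures, the oocyte marker Gdf9 was found at 14.6, 15.1 and 21.9 CPM and the granulosa marker Fshr at 3.18, 5.15 and 2.97 CPM in that order. LPS replicates 3 and 4 lay apart from LPS replicates 1 and 2 on the second principal component over all genes, at 24.7 and 21.3 against 10.5 and 12.6. In bulk RNA, fewer cells of a type and less RNA per cell cannot be told apart.

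Most of the Notch genes that could be tested were higher after either stimulus, and more so after IL-1b than after LPS. Of the 9 rows with counts, 7 rose in IL-1b against Control cultures and 0 fell, where 24.7% of all genes tested were called higher and 23% lower. In LPS against Control cultures 6 rose and 0 fell, with 22.5% of all genes called higher and 20% lower. Set directly against IL-1b cultures, LPS cultures were lower for 6 of the 9 and higher for 0, with 10.6% of all genes called lower and 11.3% higher. The median log2 fold change of the 9 was 0.73 for IL-1b and 0.44 for LPS against Control, where the median of all genes was 0.01 in both, and -0.46 for LPS against IL-1b. With LPS replicates 1 and 2 alone, chosen after the data were seen, the 6 genes called lower than in IL-1b cultures differed by less. Their log2 fold changes then ran from -0.27 (Notch4, Jag2 and Heyl) to -0.43 (Hey1). With all 12 libraries they ran from -0.45 (Heyl) to -0.61 (Hey1). The libraries of the groups did not overlap for 8 of the 9 in IL-1b against Control, which held for 22.8% of all genes in the higher direction. For LPS against Control 5 of 9 lay above all Control libraries, against 20.1% of all genes, and for LPS against IL-1b 6 of 9 lay below all IL-1b libraries, against 10.6% of all genes. Members of one pathway measured in the same libraries are not independent of each other.

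**Figure D1:**
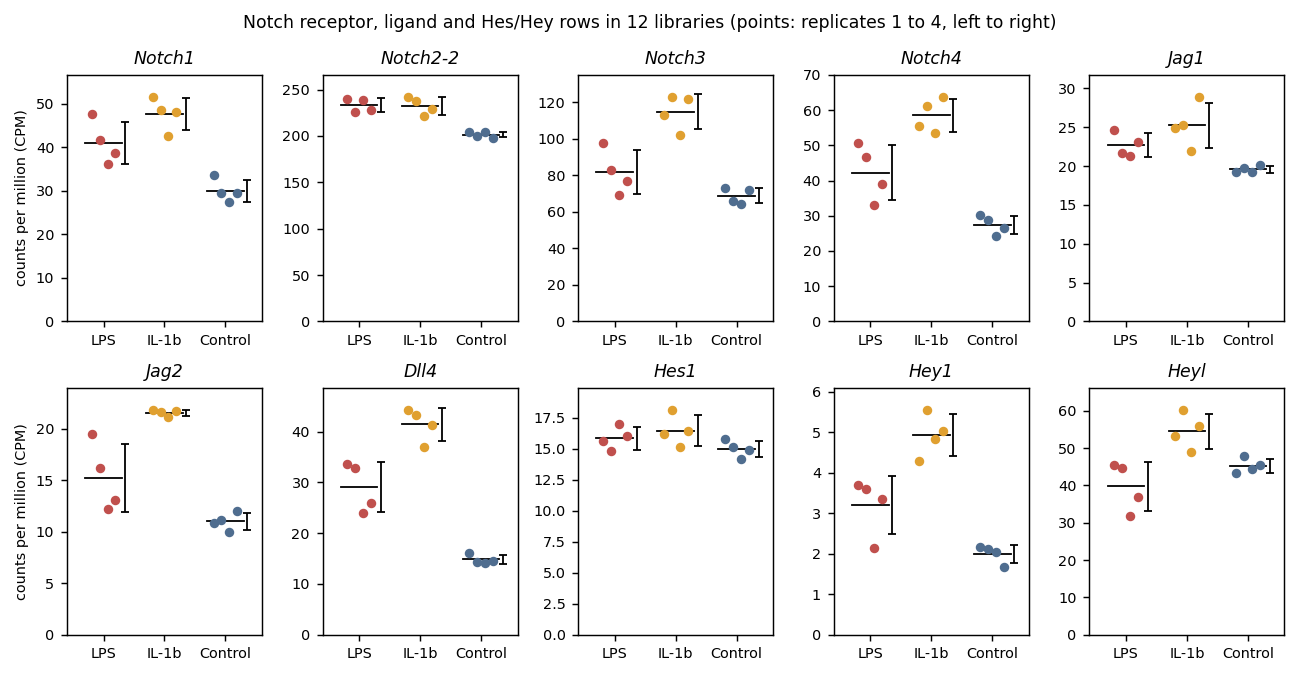
Level in CPM (y axis, from 0) of 9 Notch genes and of the Notch2-2 row in each of the 4 LPS, 4 IL-1b and 4 Control libraries, with the group mean (line) and SD (bar). Every IL-1b point lies above every Control point for all rows but Hes1, and LPS replicate 3, the third red point, is the lowest of its group for 8 of the 9 Notch genes.

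**Figure D2:**
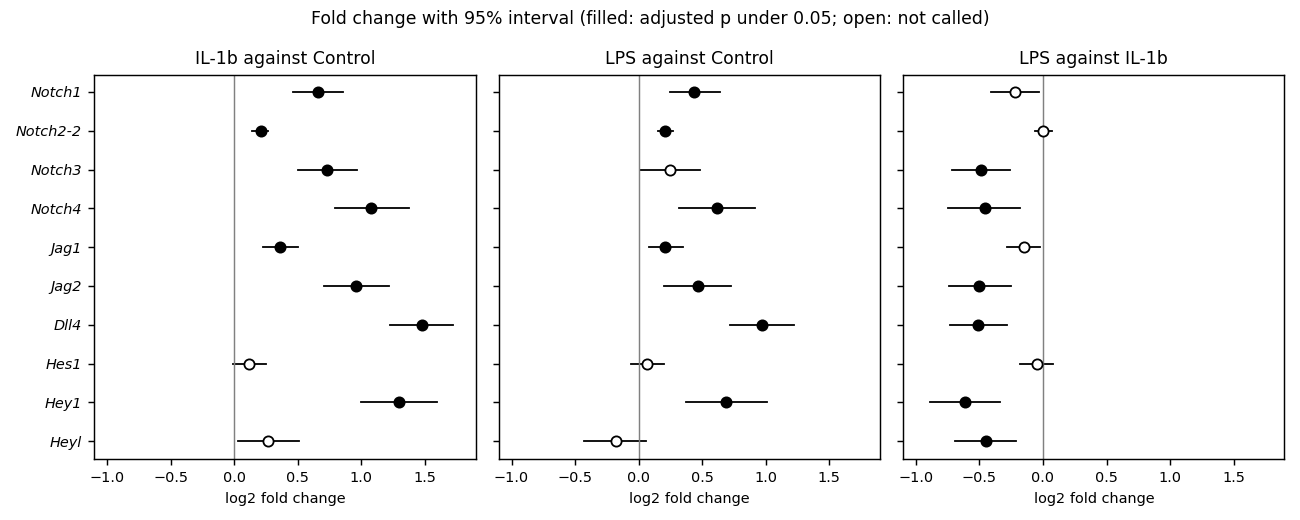
Log2 fold change (point) with its 95% interval (line) for each Notch row in the 3 comparisons. Dll4 and Hey1 lie farthest to the right for IL-1b against Control, Hes1 has an open point in all 3 panels, and all 9 Notch genes lie left of 0 for LPS against IL-1b.

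Among the receptors, Notch1, Notch3 and Notch4 rose with IL-1b, and Notch1 and Notch4 rose with LPS. Notch1, the receptor needed for vessel formation and for T cells, had 47.5, 41.6, 36.1 and 38.6 CPM in the LPS libraries, 51.5, 48.4, 42.5 and 48 CPM in the IL-1b libraries and 33.5, 29.5, 27.3 and 29.4 CPM in the Control libraries. All 8 stimulated libraries were above the highest Control library, while the LPS and IL-1b ranges overlapped. The log2 fold change was 0.66 ± 0.09 (SE, n = 4 each; adjusted p = 6.02e-05 in edgeR) for IL-1b and 0.44 ± 0.09 (adjusted p = 0.00171) for LPS. Between LPS and IL-1b cultures the difference of -0.22 (95% interval -0.41 to -0.03) did not pass the test over all genes (adjusted p = 0.105). It passed when IL-1b replicate 3 (-0.27) or LPS replicate 1 (-0.29) was left out.

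Notch3, the receptor of vascular smooth muscle and pericytes, separated the stimuli. Its levels were 97.8, 82.9, 69.5 and 77 CPM in LPS libraries, 113, 123, 102 and 122 CPM in IL-1b libraries and 73, 66, 64.6 and 71.8 CPM in Control libraries. IL-1b libraries were above all others, and LPS replicate 3 lay inside the Control range. Notch3 rose by 0.73 ± 0.10 on the log2 scale with IL-1b (adjusted p = 0.000207), had a log2 fold change of 0.25 ± 0.11 with LPS (95% interval 0.01 to 0.48; adjusted p = 0.0911), and was lower in LPS than in IL-1b cultures by a log2 fold change of -0.49 ± 0.10 (adjusted p = 0.0076). The LPS value was 0.15 without LPS replicate 1 (adjusted p = 0.186), and 0.31 without LPS replicate 3, where it passed the test (adjusted p = 0.031). With LPS replicates 1 and 2 alone it was 0.39 (adjusted p = 0.0158), and the difference between LPS and IL-1b, then -0.35, no longer passed (adjusted p = 0.0635).

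Notch4, a receptor largely restricted to endothelium, changed most among the receptors. It had 50.5, 46.6, 33 and 38.9 CPM in LPS libraries, 55.6, 61.2, 53.5 and 63.7 CPM in IL-1b libraries and 30.2, 28.7, 24.3 and 26.6 CPM in Control libraries. The 3 groups did not overlap. The level was 2.12-fold higher in IL-1b cultures (log2 1.08 ± 0.13, adjusted p = 6.65e-05) and 1.54-fold higher in LPS cultures (log2 0.62 ± 0.13, adjusted p = 0.00403) than in Control cultures. LPS against IL-1b gave -0.46 ± 0.13 (adjusted p = 0.0259), a call that was lost without IL-1b replicate 2 (-0.44, adjusted p = 0.0674), IL-1b replicate 4 (-0.42, adjusted p = 0.0705) or LPS replicate 4 (-0.42, adjusted p = 0.0722), and in a fit of those 8 libraries alone (adjusted p = 0.0686).

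The row named Notch2 held 0 counts in all 12 libraries. A second row, named Notch2-2, held 4174 to 6559 counts per library. Which transcripts or loci the rows stand for is not given in the sources used here, so an absence of Notch2 RNA cannot be read from the empty row, and Notch2-2 was kept apart from the 10 listed genes. Notch2-2 had 240, 226, 239 and 228 CPM in LPS libraries, 242, 238, 221 and 229 CPM in IL-1b libraries and 204, 200, 204 and 198 CPM in Control libraries. All 8 stimulated libraries were above all Control libraries, by a small and closely similar amount: the log2 fold change was 0.21 ± 0.03 for IL-1b (adjusted p = 1.77e-06) and 0.21 ± 0.03 for LPS (adjusted p = 1.63e-06). LPS against IL-1b gave 0.00 with a 95% interval of -0.06 to 0.07 (adjusted p = 0.956). Of all counts on the 4 receptor rows with counts, Notch2-2 took 58.7% ± 3.57 in LPS, 51.3% ± 1.53 in IL-1b and 61.5% ± 1.62 in Control cultures (SD, n = 4 each), and Notch4 took 10.6% ± 1.40, 12.9% ± 0.729 and 8.37% ± 0.615 in the same order. These shares depend on transcript length and serve only to follow one row across groups.

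All 3 ligands rose with both stimuli, and Dll4 by the most. Dll4, the ligand of sprouting vessel tips and of arteries, had 33.6, 32.9, 24 and 25.9 CPM in the LPS libraries, 44.2, 43.3, 37 and 41.3 CPM in the IL-1b libraries and 16.1, 14.4, 14.2 and 14.6 CPM in the Control libraries. The 3 groups did not overlap, with every IL-1b library above every LPS library and every LPS library above every Control library. Dll4 was 2.79-fold higher in IL-1b cultures (log2 1.48 ± 0.11, adjusted p = 3.29e-07) and 1.96-fold higher in LPS cultures (log2 0.97 ± 0.11, adjusted p = 2.45e-05) than in Control cultures. LPS against IL-1b gave a log2 fold change of -0.51 ± 0.10 (adjusted p = 0.00412). In the RefSeq annotation of GRCr8, a later build than the Rnor_6.0 named for these data, Dll4 overlaps a gene named Dll4l1, and whether their reads were separated is not given in the sources used here.

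Jag2, a ligand of endothelium and epithelium, had 19.5, 16.2, 12.2 and 13.1 CPM in LPS libraries, 21.8, 21.6, 21.1 and 21.7 CPM in IL-1b libraries and 10.9, 11.1, 10 and 12 CPM in Control libraries. The IL-1b libraries lay close together and above all others, while the LPS libraries were spread and LPS replicate 3 stood just above the highest Control library. The log2 fold change was 0.96 ± 0.12 for IL-1b (adjusted p = 1.15e-05), 0.47 ± 0.12 for LPS (adjusted p = 0.00699) and -0.50 ± 0.11 for LPS against IL-1b (adjusted p = 0.00632).

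Jag1, the ligand most widely used between stromal, mural and granulosa cells, changed least of the 3. It had 24.7, 21.7, 21.3 and 23.1 CPM in LPS libraries, 24.9, 25.3, 21.9 and 28.9 CPM in IL-1b libraries and 19.2, 19.7, 19.3 and 20.1 CPM in Control libraries. Stimulated and Control libraries did not overlap, and the LPS and IL-1b ranges did. Jag1 rose by 0.36 ± 0.07 on the log2 scale with IL-1b (adjusted p = 5.47e-05) and by 0.21 ± 0.07 with LPS (adjusted p = 0.0114). Without LPS replicate 1 the LPS value was 0.17 and missed the threshold (adjusted p = 0.0536). LPS against IL-1b gave -0.15 (95% interval -0.28 to -0.02; adjusted p = 0.102), which was -0.08 without IL-1b replicate 4 (adjusted p = 0.398) and passed without IL-1b replicate 3 (-0.22) or LPS replicate 1 (-0.19). Because the ligands changed by unequal amounts, the share of Dll4 in the counts of the 3 ligand rows was 43.3% ± 2.24 in LPS, 47% ± 1.65 in IL-1b and 32.6% ± 1.51 in Control cultures, and that of Jag1 was 34.1% ± 3.44, 28.6% ± 1.92 and 43.2% ± 1.2 in the same order (SD, n = 4 each).

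The targets did not move together: Hey1 rose with both stimuli, while Hes1 and Heyl passed the test with neither. Hey1, a repressor used in artery formation, had 3.69, 3.6, 2.14 and 3.36 CPM in the LPS libraries, 4.3, 5.54, 4.83 and 5.04 CPM in the IL-1b libraries and 2.16, 2.11, 2.05 and 1.68 CPM in the Control libraries. These are 42 to 132 counts per library, the fewest of the 9 genes. LPS replicate 3 lay inside the Control range, and the other LPS libraries lay between the Control and IL-1b ranges. Hey1 was 2.46-fold higher in IL-1b (log2 1.30 ± 0.15, adjusted p = 1.83e-08) and 1.61-fold higher in LPS cultures (log2 0.69 ± 0.15, adjusted p = 0.000574) than in Control cultures, and LPS against IL-1b gave -0.61 ± 0.13 (adjusted p = 0.00136).

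Heyl, a relative of Hey1 known from smooth muscle and pericytes, had 45.5, 44.7, 31.9 and 36.8 CPM in LPS libraries, 53.1, 60.1, 48.8 and 55.9 CPM in IL-1b libraries and 43.4, 47.8, 44.3 and 45.4 CPM in Control libraries. The IL-1b libraries were above all Control libraries, and LPS replicates 3 and 4 were below all of them. The log2 fold change was 0.27 ± 0.11 for IL-1b (95% interval 0.03 to 0.51; adjusted p = 0.0658) and -0.18 ± 0.11 for LPS (95% interval -0.43 to 0.06; adjusted p = 0.215), neither of which passed. The direct difference did, at -0.45 ± 0.11 for LPS against IL-1b (adjusted p = 0.0144), although not in a fit of those 8 libraries alone (adjusted p = 0.055). The IL-1b value passed without IL-1b replicate 3 (0.32), and at 0.27 without LPS replicate 1 or LPS replicate 3. It also passed at 0.27 in a fit of the Control and IL-1b libraries alone (adjusted p = 0.000208), and in 9 of 25 alternatives in all. The LPS value was -0.09 without LPS replicate 3. In the same GRCr8 annotation Heyl overlaps 1 other locus with no gene name.

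Hes1, the target shared by most tissues, had 15.6, 14.8, 17 and 16 CPM in LPS libraries, 16.2, 18.1, 15.1 and 16.4 CPM in IL-1b libraries and 15.8, 15.1, 14.2 and 14.9 CPM in Control libraries. All 3 groups overlapped. The log2 fold change was 0.12 for IL-1b (95% interval -0.01 to 0.25; adjusted p = 0.115), 0.07 for LPS (-0.06 to 0.20; adjusted p = 0.39) and -0.05 for LPS against IL-1b (-0.18 to 0.08; adjusted p = 0.626). Without IL-1b replicate 3 the IL-1b value was 0.16 and passed (adjusted p = 0.0474). Hes1 was the one gene of the 9 for which LPS replicate 3 was the highest LPS library.

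The promoters below show where the core word of Rbpj binding sites occurs in targets that did and did not change. They run 5′ to 3′ over 300 bases each, from RefSeq on GRCr8, with capitals marking TGGGAA on either strand (TTCCCA when read on the other strand), extended to GTGGGAA where that longer word occurs. Hes1, Hey2 and Heyl passed the test with neither stimulus against Control, and Nrarp rose with both. Heyl and Nrarp were lower in LPS than in IL-1b cultures, and Hes1 and Hey2 did not pass in that comparison.
Hes1, chr11:84212996-84213295, minus strand: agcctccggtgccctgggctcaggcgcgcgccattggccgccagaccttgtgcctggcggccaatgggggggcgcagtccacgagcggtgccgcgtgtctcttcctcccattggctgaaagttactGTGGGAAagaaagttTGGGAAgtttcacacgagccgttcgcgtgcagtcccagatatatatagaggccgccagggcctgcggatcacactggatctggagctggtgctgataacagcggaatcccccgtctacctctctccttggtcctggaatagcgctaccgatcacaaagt
Hey2, chr1:28640850-28641149, plus strand: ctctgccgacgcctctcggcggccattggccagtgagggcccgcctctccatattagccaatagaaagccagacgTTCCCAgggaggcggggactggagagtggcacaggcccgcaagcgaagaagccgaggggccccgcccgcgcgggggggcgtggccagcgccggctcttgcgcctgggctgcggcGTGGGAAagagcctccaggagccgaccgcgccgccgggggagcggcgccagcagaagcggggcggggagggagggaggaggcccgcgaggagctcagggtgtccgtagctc
Nrarp, chr3:28390495-28390794, plus strand: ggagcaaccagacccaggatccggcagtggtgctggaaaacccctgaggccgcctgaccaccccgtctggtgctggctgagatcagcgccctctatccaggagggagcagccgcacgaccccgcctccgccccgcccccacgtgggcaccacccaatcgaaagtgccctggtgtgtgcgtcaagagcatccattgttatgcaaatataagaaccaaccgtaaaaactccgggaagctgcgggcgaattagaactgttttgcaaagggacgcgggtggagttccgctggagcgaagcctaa
Heyl, chr5:140793021-140793320, plus strand: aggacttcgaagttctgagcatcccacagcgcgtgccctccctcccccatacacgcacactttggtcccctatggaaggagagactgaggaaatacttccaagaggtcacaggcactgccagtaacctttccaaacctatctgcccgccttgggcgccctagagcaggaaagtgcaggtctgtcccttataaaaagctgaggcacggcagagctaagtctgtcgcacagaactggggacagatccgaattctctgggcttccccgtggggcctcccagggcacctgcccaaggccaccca

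In the Hes1 window GTGGGAA began at -124 and a further TGGGAA at -109, counted from the annotated start. The Hey2 window held GTGGGAA at -61 and TGGGAA on the other strand at -175. The windows of Nrarp and Heyl held neither word. Among windows not printed, those of Hes2, which rose with IL-1b, and Hes6, which passed with neither stimulus, also held neither word, and both windows of Hes7, which passed with neither, held GTGGGAA. Over all 33469 such windows, 6.29% held GTGGGAA and 25.7% held TGGGAA, the second share including the first because GTGGGAA contains TGGGAA. The NF-kB consensus, the motif of the factor that IL-1b and LPS receptors activate, matched 1 time each in the Hes1 and Nrarp windows, was in neither of the other 2 and occurred in 4.18% of all windows. Among the windows of the 10 genes not printed, it matched in those of Notch2 and Notch4 and in a Jag2 window, and not in those of Notch1, Notch3 and Jag1. Windows were found for 8 of the 10 genes and not for Dll4 or Hey1, so Hey1, which rose with both stimuli, is missing here. These are matches of letters, and binding was not measured here.

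Endothelial marker genes moved in the same direction and order as most of the Notch genes. Of 16 endothelial markers, 15 rose in LPS and 16 in IL-1b against Control cultures, with median log2 fold changes of 0.74 and 1.13, and 15 were lower in LPS than in IL-1b cultures, with a median of -0.41. Their summed level was 335 to 452 CPM in LPS, 483 to 549 CPM in IL-1b and 224 to 261 CPM in Control libraries, and the defining markers Pecam1 and Cdh5 were at 0 in none. Within the IL-1b contrast the markers ran from 0.44 (Tek) to 2.12 (Vwf). Dll4 exceeded 13 of the 16, Hey1 11, Notch4 6, Jag2 3, Notch1 and Notch3 1 each, and Jag1, Heyl and Hes1 exceeded 0. Within the LPS contrast, where the markers ran from 0.07 (Tek) to 1.5 (Ecscr), Dll4 again exceeded 13, Hey1 5, Notch4 4, Jag2 and Notch1 2 each and Heyl 0. The part of endothelial RNA in the Notch gene differences was not tested.

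Set against the summed endothelial markers, Dll4 remained higher in stimulated cultures, and Notch1, Notch3 and Notch4 did not. Per 100 CPM of those markers, Dll4 stood at 7.38 CPM ± 0.272 in LPS, 7.96 ± 0.279 in IL-1b and 6.26 ± 0.0716 in Control cultures (SD, n = 4 each). The lowest stimulated library, at 7.17, was above the highest Control library, at 6.33. Taken against each marker singly, the Dll4 ratio was above all Control libraries for 9 of the 16 markers in IL-1b cultures and below all of them for 1, and for 8 and 2 in LPS cultures, so the result depends on which markers are used. Notch4 stood at 10.7 ± 0.585, 11.2 ± 0.738 and 11.6 ± 0.682, and Hey1 at 0.809 ± 0.123, 0.947 ± 0.0922 and 0.846 ± 0.0930 in the order LPS, IL-1b and Control, with overlapping libraries. Against single markers in IL-1b cultures, the Notch4 ratio was above all Control libraries for 3 of the 16 and below all for 4. For Hey1 these counts were 3 and 1, and for Jag2 they were 1 and 6. In LPS cultures they were 1 and 4 for Notch4, 1 and 2 for Hey1 and 1 and 7 for Jag2. Notch1 stood at 10.4 ± 0.449, 9.15 ± 0.435 and 12.6 ± 0.297, and Notch3 at 20.8 ± 0.938, 22.1 ± 1.06 and 29.1 ± 1.21, both below Control in every stimulated library. The summed mural markers were lower in stimulated cultures. Per 100 CPM of them, Notch3 stood at 3.2 ± 0.504, 4.95 ± 0.303 and 1.21 ± 0.0959 in the order LPS, IL-1b and Control. Notch4 stood at 1.66 ± 0.313, 2.52 ± 0.108 and 0.483 ± 0.0512 in that order. The direction of the Notch3 ratio therefore depends on which markers are used. The contractile genes Acta2 and Tagln, which fell with both stimuli, made up most of the mural sum. The ratio was not taken against each mural marker singly. All of these ratios were chosen after the marker levels had been seen.

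**Figure D3:**
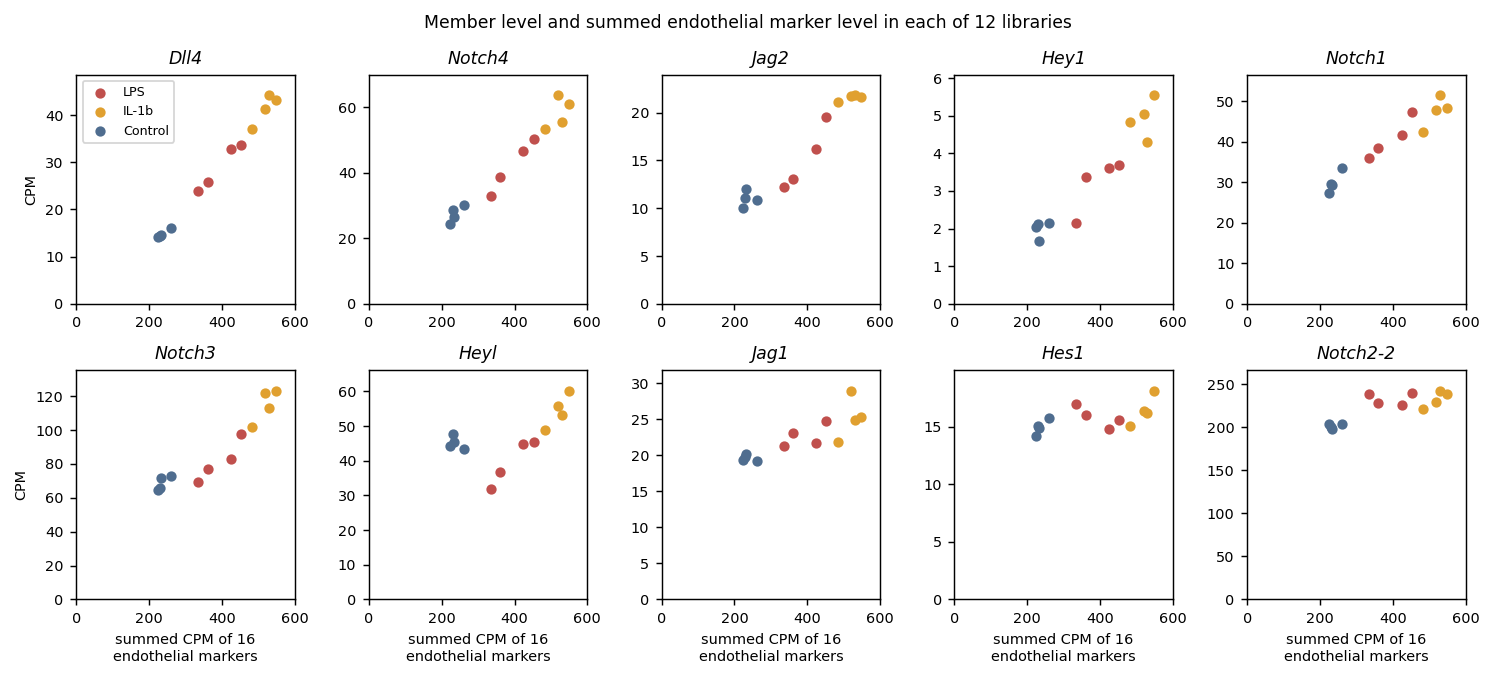
Level of each Notch row in CPM (y axis, from 0) against the summed CPM of 16 endothelial markers (x axis) in each LPS, IL-1b and Control library. Dll4 and Notch4 climb with the marker sum across all 3 groups. Notch2-2 is at 221 to 242 CPM in the stimulated libraries and 198 to 204 CPM in Control libraries, and Hes1 stays within 14.2 to 18.1 CPM in all 12.

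The spread among the LPS libraries had the same order for these genes and for the endothelial markers. The summed markers were 452, 425, 335 and 361 CPM in LPS replicates 1 to 4, so that replicate 1 was highest and replicate 3 lowest. Notch1, Notch3, Notch4, Jag2, Dll4, Hey1 and Heyl, 7 of the 9, ranked the 4 LPS libraries in exactly that order, as did 6.31% of all genes tested. In IL-1b cultures 0 of the 9 shared the order of the markers (4.12% of all genes), and in Control cultures 2 of 9 did (3.43%).

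Theca markers moved mostly in the same direction with both stimuli, and granulosa markers with IL-1b. Mural and macrophage markers moved mostly in the opposite direction. Of 8 granulosa markers, 3 rose, 1 fell and 4 were not called with LPS (median log2 fold change 0.26). With IL-1b 5 rose and 1 fell (0.87), and 3 were lower in LPS than in IL-1b cultures (-0.34). The marker that fell was the defining marker Amh, at -1.32 with LPS and -1.23 with IL-1b. Their sums were 1280 to 1470 CPM in LPS, 1540 to 1810 CPM in IL-1b and 1030 to 1070 CPM in Control libraries. Gja1 alone made up most of each sum, averaging 925, 996 and 668 CPM in that order. Of 12 theca markers, 7 rose and 2 fell with LPS (0.64), 9 rose and 2 fell with IL-1b (0.94), and 8 were lower in LPS than in IL-1b cultures (-0.32). The collagen gene Col1a1, which fell and averaged 2680 CPM in LPS, 3340 in IL-1b and 4770 in Control cultures, set the direction of their sum: without it the other 11 summed to 1160 to 1260, 1620 to 1790 and 526 to 578 CPM in that order, and with it to 3600 to 4010, 4810 to 5230 and 5040 to 5690 CPM.

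Of 13 mural markers, 1 rose and 9 fell with LPS and 4 rose and 8 fell with IL-1b, and their sum was 2450 to 2670 CPM in LPS, 2230 to 2450 CPM in IL-1b and 5470 to 5890 CPM in Control libraries. Without the contractile genes Acta2 and Tagln the sum was 746 to 884, 874 to 967 and 1300 to 1380 CPM in the same order. The 4 that rose with IL-1b were Kcnj8 (0.78), Abcc9 (0.54), Mcam (0.45) and Des (0.30), and Kcnj8 (0.70) also rose with LPS. The 8 that fell with IL-1b included Pdgfrb (-0.43) and Cspg4 (-0.61), and the defining marker Rgs5 had -0.08 (adjusted p = 0.712). With LPS, Pdgfrb (-0.54), Cspg4 (-0.73) and Rgs5 (-0.47) all fell. Of 12 macrophage markers, 2 rose and 9 fell with LPS and 2 rose and 8 fell with IL-1b, with sums of 93 to 100, 98 to 104 and 138 to 146 CPM in LPS, IL-1b and Control libraries. Of 7 epithelial markers 2 rose and 3 fell with either stimulus (sums of 18.9 to 25, 22.4 to 24.2 and 36.2 to 38.4 CPM), and of 6 oocyte markers 2 fell with LPS and 1 with IL-1b (65.7 to 134, 79.6 to 111 and 134 to 150 CPM), in the same order. The 14 defining markers were Pecam1, Cdh5, Myh11, Rgs5, Ptprc, Csf1r, Cyp17a1, Lhcgr, Fshr, Amh, Krt19, Upk3b, Gdf9 and Zp3, and none was at 0 in any library; of all 74 markers, Cyp19a1 and Cd163 reached 0 in at least 1. The part of these cell types in the Notch gene values was not tested.

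The rest of the pathway was divided between genes that rose and genes that fell, as were all genes tested. Of 75 other pathway genes in the table, 70 were tested, and 22 rose and 19 fell with IL-1b (median log2 fold change 0.03), 20 rose and 18 fell with LPS (median -0.01), and 9 were higher and 9 lower in LPS than in IL-1b cultures (median 0.00). These counts, and the counts by role below, stand beside the shares of all genes. Those were 22.5% higher and 20% lower for LPS, 24.7% and 23% for IL-1b, and 11.3% and 10.6% for LPS against IL-1b. Among 6 further ligands tested, 3 fell with each stimulus, and 2 rose with IL-1b and 0 with LPS. Dner, a transmembrane ligand known from neurons, fell by 1.39 ± 0.15 on the log2 scale with LPS (adjusted p = 1.92e-08) and by 1.09 ± 0.15 with IL-1b (adjusted p = 8.42e-07). The microfibril proteins Mfap2 and Mfap5, which can bind Notch, had log2 fold changes of -0.79 and -0.78 with LPS and -0.80 and -1.03 with IL-1b. Nov, a matricellular protein also known as Ccn3, rose by 0.18 ± 0.05 with IL-1b (adjusted p = 0.00814).

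Among the enzymes that modify receptors and ligands, Mfng and Lfng had the largest log2 fold changes with IL-1b. Mfng, a Fringe glycosyltransferase that shifts receptors towards Delta-type ligands, averaged 3.42 ± 0.876 CPM in LPS, 5.24 ± 0.810 in IL-1b and 2.1 ± 0.342 in Control cultures (SD, n = 4 each). It rose by 0.69 ± 0.17 on the log2 scale with LPS (adjusted p = 0.00196) and by 1.29 ± 0.16 with IL-1b (adjusted p = 3.64e-07), and LPS against IL-1b gave -0.61 (adjusted p = 0.00442). Lfng, the Fringe enzyme of somite formation, rose with IL-1b (0.63 ± 0.12, adjusted p = 0.000127), had 0.04 ± 0.13 with LPS (adjusted p = 0.844) and was lower in LPS than in IL-1b cultures (-0.59, adjusted p = 0.000899). The third, Rfng, fell by 0.20 with LPS (adjusted p = 0.0289), and Poglut1, which adds O-glucose, fell by 0.18 with IL-1b (adjusted p = 0.000629). Of the 4 ubiquitin ligases that act on ligands, Neurl1b rose by 0.51 ± 0.15 with IL-1b (adjusted p = 0.00669), Mib1 fell by 0.11 with IL-1b (adjusted p = 0.0433) and Mib2 fell by 0.12 with LPS (adjusted p = 0.0418).

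Of 9 cleavage genes, 4 rose and 3 fell with LPS and 2 rose and 2 fell with IL-1b. Adam17 and Psen2, a protease and a gamma-secretase subunit, rose with LPS by 0.28 ± 0.03 (adjusted p = 5.54e-09) and 0.26 ± 0.04 (adjusted p = 7.44e-06) and had 0.03 each with IL-1b, and both were higher in LPS than in IL-1b cultures (0.25, adjusted p = 3.66e-07, and 0.23, adjusted p = 0.000141). Adam10, the main ligand-dependent protease, rose by 0.14 with LPS and 0.09 with IL-1b, and Aph1b, another gamma-secretase subunit, fell by 0.17 with LPS and 0.14 with IL-1b.

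Of 21 nuclear genes, 8 rose and 6 fell with LPS and 5 rose and 7 fell with IL-1b. Rbpj, the DNA-binding partner, rose by 0.20 ± 0.03 with LPS (adjusted p = 4.77e-06) and by 0.17 ± 0.03 with IL-1b (adjusted p = 2.28e-05). The Mastermind coactivator Maml2 averaged 30.3 ± 1.21 CPM in LPS, 23 ± 2.31 in IL-1b and 38.8 ± 1.07 in Control cultures, and had log2 fold changes of -0.36 ± 0.05 with LPS (adjusted p = 2e-06) and -0.75 ± 0.05 with IL-1b (adjusted p = 2.3e-12). Maml3 fell by 0.36 with LPS and 0.41 with IL-1b. The corepressor Tle3 rose by 0.55 with LPS and 0.52 with IL-1b, and the acetyltransferase Kat2a by 0.33 and 0.34 in that order. Another corepressor of the Tle family, Tle2, fell by 0.59 with LPS (adjusted p = 1.39e-05) and 0.40 with IL-1b (adjusted p = 0.00119).

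Of 13 negative regulators, 5 rose and 3 fell with LPS and 6 rose and 4 fell with IL-1b. Nrarp, an inhibitor that binds the Notch intracellular domain and is itself a Notch target, averaged 6.25 ± 1.26 CPM in LPS, 8.47 ± 0.354 in IL-1b and 3.14 ± 0.615 in Control cultures (SD, n = 4 each). Its log2 fold change was 0.98 ± 0.14 with LPS (adjusted p = 3.23e-06), 1.42 ± 0.13 with IL-1b (adjusted p = 4.99e-09) and -0.44 for LPS against IL-1b (adjusted p = 0.00991). Egfl7, a secreted endothelial protein and one of the 16 endothelial markers, rose by 0.34 with LPS and 0.78 with IL-1b. The Deltex family ubiquitin ligases Dtx2 and Dtx3l rose by 0.40 and 0.30 with LPS and by 0.19 and 0.30 with IL-1b. Of the others in that family, Dtx4 rose with both (0.38 and 0.61), Dtx3 fell with both, by 0.24 with LPS (adjusted p = 6.65e-05) and 0.16 with IL-1b (adjusted p = 0.00398), and Dtx1 fell by 0.53 with LPS (adjusted p = 0.00364).

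Of 14 other target genes tested, 3 rose and 2 fell with LPS and 5 rose and 1 fell with IL-1b. Besides Nrarp, the cell-growth gene Myc rose by 0.54 with LPS and 0.42 with IL-1b and the cyclin Ccnd1 by 0.20 and 0.39 in that order. Gata3 fell with both, with log2 fold changes of -0.84 with LPS (adjusted p = 0.00136) and -0.88 with IL-1b (adjusted p = 0.000929). Its level was low, averaging 0.95 CPM in LPS, 0.919 in IL-1b and 1.72 in Control cultures. Hes2 rose with IL-1b (1.04 ± 0.24, adjusted p = 0.000761) at a low level, averaging 0.965 ± 0.420 CPM in LPS, 1.52 ± 0.214 in IL-1b and 0.749 ± 0.127 in Control cultures. Hey2, the closest relative of Hey1, had log2 fold changes of -0.07 with LPS (95% interval -0.28 to 0.14; adjusted p = 0.622) and 0.13 with IL-1b (-0.09 to 0.34; adjusted p = 0.338).

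**Figure D4:**
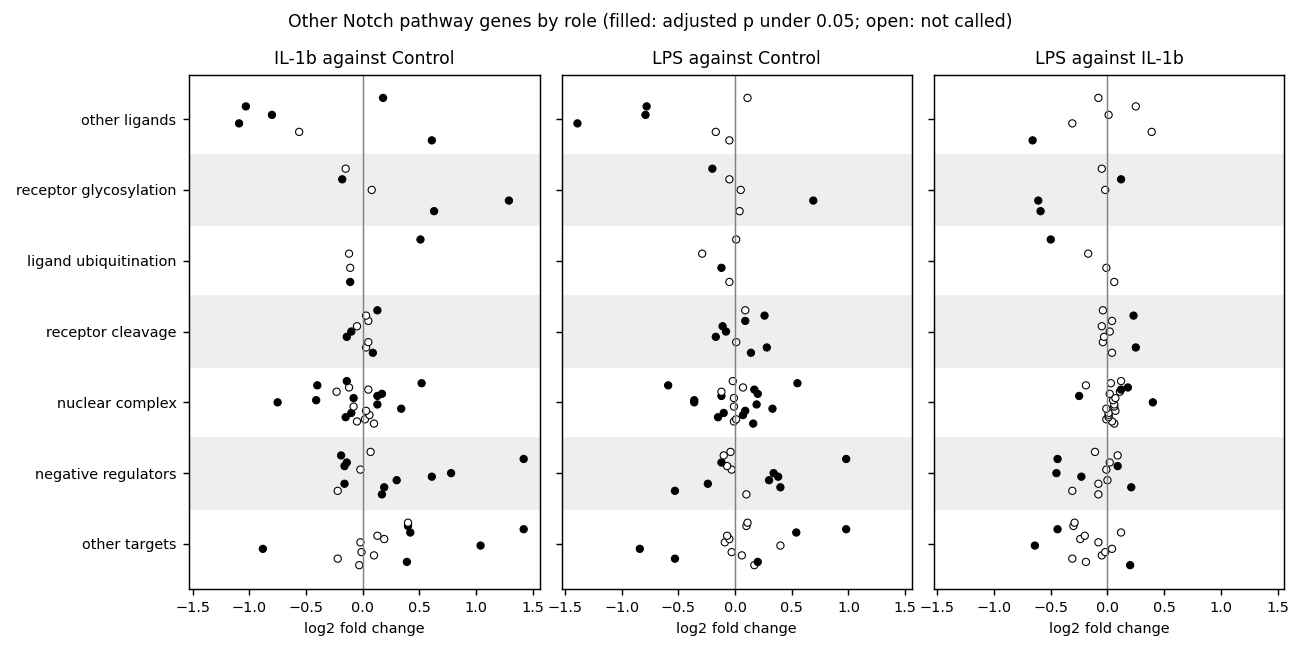
Log2 fold change of each of 70 other Notch pathway genes (points, spread vertically within a role for legibility) in the 3 comparisons. Most points lie within a narrow band around 0 on both sides, with Nrarp, Mfng and Hes2 to the right at 1.42, 1.29 and 1.04 and Dner and Mfap5 to the left at -1.09 and -1.03 for IL-1b against Control.

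The genes whose library-by-library pattern was most like each Notch gene differed between the members. Likeness was the root mean square difference (RMS) of log2 CPM over the 12 libraries, each gene taken against its own Control mean, among 11452 genes outside the pathway lists. Notch4 was nearest to Esam, an endothelial junction protein and one of the endothelial markers (RMS 0.0533), and to Arap3 (0.0734). Notch1 was nearest to Fli1, a transcription factor of blood and endothelial cells (0.0637), and to Cgnl1 (0.0798). Dll4 was nearest to Col15a1, a basement membrane collagen (0.0643), and to the protease gene Adamts9 (0.0787).

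Notch3 lay nearest to Mmrn2, an endothelial matrix protein (0.0758), and Arhgap27 (0.101), and Heyl to Apoe, the lipid carrier (0.0679), and Col18a1 (0.0768). Jag1 lay nearest to Plekhg3 (0.0730) and to Myd88, the adaptor shared by the IL-1 and LPS receptors (0.0735), and Jag2 to Nrros (0.103) and Socs2, a cytokine-signalling inhibitor (0.105). Hey1, the member with the fewest counts, had the least close neighbours, Gpr4 (0.146) and Chst1 (0.148). The part of its low counts in these distances was not tested. Hes1 lay nearest to Wdr77 (0.0494) and Coq10b (0.0530), with log2 fold changes of at most 0.11, and Notch2-2 to Litaf (0.0337) and Stoml2 (0.0392). These distances describe the 12 libraries and carry no test.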

How the data were processed

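RNA was sequenced after a TruSeq Stranded mRNA preparation on a HiSeq4000, per the labels' protocols. What the authors deposited is 1 table of unnormalized counts, with a row per gene symbol and a column for each of 12 libraries. The submitters' processing notes name TopHat2 2.1.1, SAMtools, DESeq2 and the Rnor_6.0 build, and the counter, annotation and strand setting are not given in the sources used here. The kit keeps strand, but whether overlapping and antisense genes were separated is therefore unknown.

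Counts were tested with edgeR 4.0.16 (R 4.3.3): filterByExpr with the groups, TMM scaling, a robust quasi-likelihood fit of all 12 libraries with group as the only term, two-sided tests and Benjamini-Hochberg adjustment over 17330 genes. SE is the absolute log2 fold change divided by the square root of F. Levels are CPM of the TMM-scaled library size. The code of the fit was run on simulated data with known changes, drawn with a common spread for all genes. That run does not check the p-values under the spread of these libraries. Alternatives used DESeq2 1.42.0, limma 3.58.1 and other filters, scalings and subsets.

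The members and all gene lists were chosen with earlier results of these data known. All 10 members are described. Per role, up to 4 called pathway genes with the smallest p over the IL-1b and LPS contrasts are named. Rbpj, Hey2, Tle2, Gata3 and further Hes and Dtx genes were added after their values were seen. The 2 nearest genes per member needed a mean of 2 CPM, with a prior count of 2 in log2 CPM. No 2 libraries were identical. Replicate numbers are shared by the groups but were not taken as pairs: the labels state no pairing and the data only hint at it. Promoters are RefSeq windows on GRCr8. Depth limits Hey1 most, and the intervals come from the fitted spread between libraries.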

Additional observations from a re-analysis of the deposited data

How the results depend on the processing

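Over 25 alternatives and 30 combinations of gene and comparison, 704 of 750 values kept their side of the threshold, 22 lost a call and 24 gained one. Of the values called in the main fit, 0 changed direction, and the direction of uncalled values was not counted. Putting the Notch2-2 row in place of the Notch2 row reused the main fit, so its 30 values could not differ. The threshold of 0.01 was also applied to that fit. Scaling by library size alone put the share of calls that were higher at 63.4% for LPS and 64.1% for IL-1b against Control, where TMM gave 53% and 51.7%. Under an adjusted p below 0.01, LPS against IL-1b gave 2202 genes and 9 other pathway genes, where the threshold of 0.05 gave 3791 and 18. Tested against a fold of 1.2 (glmTreat), all-gene calls were 2494 for LPS and 3090 for IL-1b against Control and 412 for LPS against IL-1b, where the test against no change gave 7358, 8261 and 3791. Under that test other pathway genes called numbered 11, 14 and 0 in the same order, where the test against no change gave 38, 41 and 18. Of the members, 3 were then higher in LPS than in Control cultures and 0 lower in LPS than in IL-1b cultures, where the test against no change called 6 in each, and Jag1 was no longer called for IL-1b (adjusted p = 0.11). With LPS replicates 1 and 2 only, chosen after seeing the data, LPS against IL-1b gave 1979 genes and 8 other pathway genes. Except for the scaling, these alternatives are a stricter test or fewer libraries. Same-numbered libraries of different groups had correlations of -0.017 to 0.251, with 4 of 12 over 0.1, and differently numbered ones -0.186 to 0.121. A library's best match in another group shared its number in 15 of 24 cases, a hint of pairing from the data that the labels do not state. The numbers were not taken as pairs because not every same-number correlation was over 0.1. With the number as a replicate block, no member call was lost, and Heyl for IL-1b (0.27, adjusted p = 0.00772), Notch3 for LPS (0.25, adjusted p = 0.0343), and Notch1 (-0.22, adjusted p = 9.07e-05) and Jag1 (-0.15, adjusted p = 0.047) for LPS against IL-1b were gained. Heyl for IL-1b also passed with DESeq2 (adjusted p = 0.0435) and limma-voom (0.00986), and Notch1 for LPS against IL-1b with both (0.025 and 0.0304). The cause of these gains was not tested.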
